A study of Mus musculus with 3 samples.

Results

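The 10 genes described here encode 3 sets of signals that act between the cells of vessels and their neighbours, vascular endothelial growth factor (Vegfa) with its receptors Flt1 and Kdr, the angiopoietins Angpt1 and Angpt2 with their receptor Tek, and the platelet-derived growth factors Pdgfa and Pdgfb with their receptors Pdgfra and Pdgfrb. Their rows were found by gene symbol, and they are 10 of 32227 genes counted. The data are single-nucleus RNA-seq of lumbar (L3 to L5) dorsal root ganglia (DRG) of C57BL/6 mice, with 1 adult library (3 months) and 2 aged libraries (21 months), and no mutant, transgene, injury or treatment in these 3 libraries. The DRG holds the cell bodies of sensory neurons, each wrapped by satellite glial cells (SGCs), together with non-myelinating and myelinating Schwann cells (NMSC and MSC), fibroblasts, vessel cells and immune cells. The question asked of each gene was which of these cells held its RNA, and whether its level differed between the adult and the aged libraries.

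VEGF-A is secreted by cells short of oxygen and by many cells in contact with vessels, and it acts on endothelial cells mainly through Kdr (VEGFR2), while Flt1 (VEGFR1) binds the same ligand tightly and can act as a decoy. Angiopoietin 1 activates the endothelial receptor Tek (Tie2) and steadies vessels, whereas angiopoietin 2 can block or activate the same receptor according to context. PDGF-B made by endothelial cells recruits mural cells (pericytes and smooth muscle cells) through Pdgfrb, and PDGF-A acts through Pdgfra, which is widely used as a marker of fibroblasts and of glial precursors.

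Nuclei with more than 1000 detected genes were kept, 11518 of the adult library and 5130 and 2611 of aged replicates 1 and 2, with a median of 3269 to 4900 UMIs (unique molecular identifiers, each a counted RNA molecule). Levels are given in CPM (counts-per-million), the UMIs of a gene scaled to the total UMIs of its class in that library. The nuclei were sorted by marker genes, none of them among the 10 genes, into 9 classes that are called neuron-like, SGC-like and so on. Even mixtures of 2 classes (1241, 783 and 338 nuclei) and nuclei that could not be named (2299, 837 and 462) were left out. The 9 classes held 13210 of the 19259 nuclei kept. The classes held between 7 of 8 and all of their own markers at over 2-fold the rest, except the SGC-like class with 8 of 10, whose summed NMSC markers (17685, 13579 and 14054 CPM) stayed near those of the NMSC-like class (16084, 18696 and 17809). Summed SGC markers were 4342, 4589 and 4624 in the SGC-like and 4763, 4328 and 4377 in the NMSC-like nuclei, so the border between both glial classes is soft. The adult library shared 1 barcode with each aged library, and the aged libraries shared 0. The age in the series' design text and the sex in the study's methods differ from the labels used here, and Xist (34951 to 127630 UMIs) against 4 Y-linked genes (347 to 2206 UMIs) went against the label male in all 3 libraries. The labels do not say how many mice entered a library, so p-values do not measure the spread between mice. The spread in the age fits comes largely from a trend over all genes tested, since 1 residual degree of freedom is left. In the class fits all classes share 1 estimate of the spread. There, and between neuron groups and fibroblast subsets, the mean of the others is the mean of their log2 levels. A class called higher can thus lie below the mean CPM of the others. With 1 adult library, age and library cannot be told apart.

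Flt1, Kdr and Tek were all high in the endothelial-like nuclei (105, 102 and 42 nuclei). Levels and numbers of nuclei are always in the order adult replicate 1, aged replicate 1 and aged replicate 2. The stretch of 150 bases that ends just before the start site of each of these receptor genes is shown because the 3 genes were high in the same class. The promoters come from RefSeq (GRCm38.p6), each is written 5′ to 3′ on the strand of its gene, and capitals mark GGAA or its reverse complement TTCC, the core recognised by ETS factors.
Flt1 (chr5:147726012-147726161, minus strand): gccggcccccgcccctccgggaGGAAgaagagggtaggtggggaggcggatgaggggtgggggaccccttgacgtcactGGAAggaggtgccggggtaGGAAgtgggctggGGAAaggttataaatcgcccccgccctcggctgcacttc
Kdr (chr5:75978456-75978605, minus strand): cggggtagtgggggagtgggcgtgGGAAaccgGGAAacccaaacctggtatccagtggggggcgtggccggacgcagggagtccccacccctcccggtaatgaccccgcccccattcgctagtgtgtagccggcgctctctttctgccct
Tek (chr4:94739139-94739288, plus strand): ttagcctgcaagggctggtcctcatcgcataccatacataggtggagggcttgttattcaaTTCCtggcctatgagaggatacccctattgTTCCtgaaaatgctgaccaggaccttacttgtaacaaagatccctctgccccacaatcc
The 250 bases before the start held 4 such cores for Flt1, 4 for Kdr and 2 for Tek. The core is common, with 93.4% of 32851 mouse promoters of that length holding it and a median of 3 matches. Flt1 also had TATAAA 31 bases before its start, a motif found on either strand in 12.4% of these promoters. Of the 10 genes, 6 had a promoter in the table used. A match describes the letters of the window and is not a measured binding site.

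Flt1 (GRCm38 chromosome 5, 147561604 to 147726011, minus strand) measured 3738, 3110 and 3479 CPM in endothelial-like nuclei (3442 ± 316, SD, n = 3), from 837, 1277 and 741 UMIs. All 3 libraries lay far above every other class, the next being mural-like nuclei with 90.4, 112 and 0. The last rests on 6 nuclei and 18383 UMIs, in which a count of 0 allows up to 163 CPM. Against the mean of the other classes, Flt1 was higher by 8.08 on the log2 scale (SE 0.17, edgeR adjusted p = 4.55e-27). At least 1 Flt1 UMI was found in 97.1%, 99.0% and 95.2% of endothelial-like nuclei, and in 1.96%, 3.68% and 2.04% of SGC-like nuclei. Median depth was 2011, 3080 and 3529 UMIs in the former and 3168, 7118 and 7487 in the latter, and its part was not tested.

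Kdr (chromosome 5, 75932827 to 75978458, minus strand) measured 179, 222 and 216 CPM in endothelial-like nuclei (205 ± 23.3, SD, n = 3), with no overlap with any other class. Its difference from the mean of the other classes was 6.06 on the log2 scale (SE 0.28, edgeR adjusted p = 4.16e-18). Mural-like nuclei came second by mean with 22.6, 0 and 54.4 CPM, from 3, 0 and 1 UMIs (the 0 allows up to 48.0 CPM), and the difference was not called. Next were MSC-like nuclei with 26.9, 11.9 and 11.6 CPM, above the SGC-like, NMSC-like, fibroblast-like and neuron-like nuclei in each library. The MSC-like difference was 2.07 (SE 0.36, edgeR adjusted p = 2.30e-05). In MSC-like nuclei 31, 19 and 7 UMIs of Kdr stood beside 16, 7 and 3 of Flt1, whereas in endothelial-like nuclei 40, 91 and 46 of Kdr stood beside 837, 1277 and 741 of Flt1. The ratio of the UMIs of the 2 genes thus differed between these classes in each library.

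Tek (chromosome 4, 94739289 to 94874976, plus strand), the angiopoietin receptor, measured 420, 623 and 592 CPM in endothelial-like nuclei (545 ± 110, SD, n = 3). The next class in order, the mural-like nuclei, had 2 UMIs of Tek over the 3 libraries. The difference from the mean of the other classes was 7.39 on the log2 scale (SE 0.24, edgeR adjusted p = 4.64e-22). Tek and Flt1 were found in the same endothelial-like nuclei, 56 of the 56 with Tek in the adult library, 70 of 71 in aged replicate 1 and 34 of 35 in aged replicate 2 also having Flt1, as the high share of nuclei with Flt1 makes likely. Pdgfb was the 1 ligand that rose in this class, with 326, 317 and 338 CPM (327 ± 10.7, SD, n = 3) and a difference of 4.58 (SE 0.27, edgeR adjusted p = 2.40e-15). Of the 10 genes, these 4 were higher and 3 lower in endothelial-like nuclei, where 14.1% of 12816 genes tested were higher and 8.01% lower. The lower genes were Pdgfa, Pdgfrb and Vegfa, each with at most 23.5 CPM in any library. The Vegfa difference of -1.92 lost its call without adult replicate 1 (-1.78) or aged replicate 1 (-1.71), that of Pdgfa without aged replicate 1 (-1.82) and that of Pdgfrb without aged replicate 1 (-2.57).

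**Figure D1:**
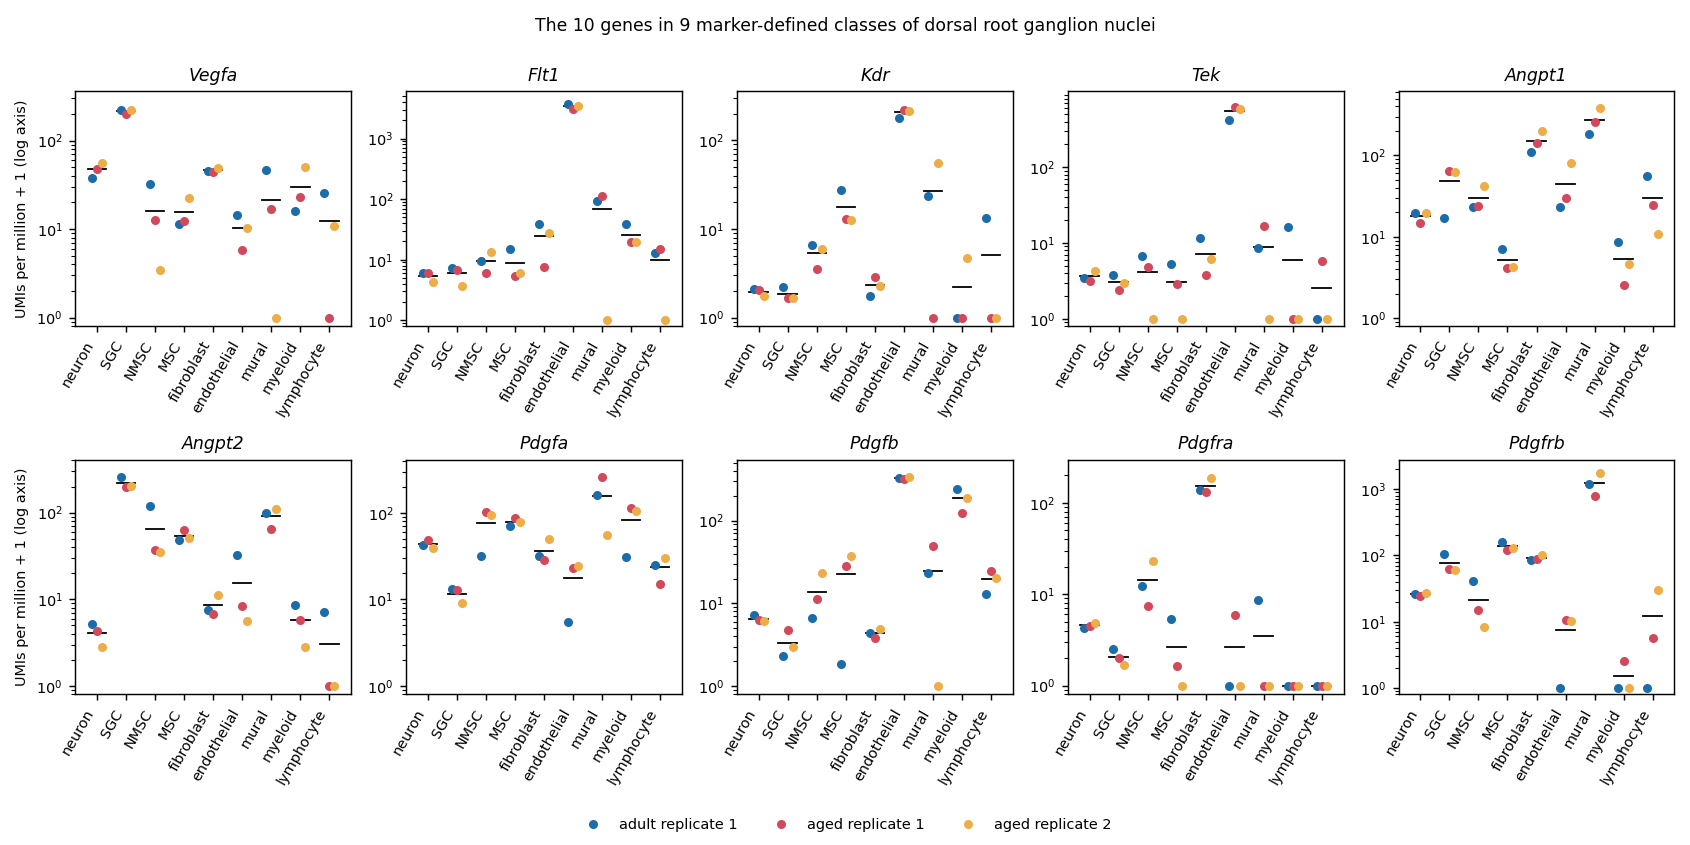
Level of each of the 10 genes in the 9 marker-defined classes. Points are libraries (CPM, plus 1, log axis, scales differ between panels) and lines are the means of the 3 libraries. Flt1, Kdr and Tek peak in endothelial-like nuclei, Vegfa and Angpt2 in SGC-like nuclei, Pdgfra in fibroblast-like nuclei and Pdgfrb in mural-like nuclei.

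The ligands Vegfa and Angpt2 were high in the SGC-like nuclei (2959, 380 and 196). Vegfa (chromosome 17, 46016993 to 46032369, minus strand) measured 223, 199 and 220 CPM there (214 ± 13.1, SD, n = 3). Every SGC-like value lay above every value of another class, the highest of which was 55.4 in neuron-like nuclei. The difference was 3.62 on the log2 scale (SE 0.19, edgeR adjusted p = 5.13e-17). Neuron-like nuclei came next in order with 36.3, 46.6 and 55.4, followed by fibroblast-like nuclei with 44.6, 42.6 and 47.6, and these neighbours overlapped. Against the mean log2 level of the other classes, Vegfa was higher in neuron-like nuclei by 1.13 (SE 0.21, edgeR adjusted p = 2.89e-05). Its mean CPM there was 46.1, against 44.9 in fibroblast-like and 214 in SGC-like nuclei. The free RNA carried 37.4, 39.3 and 38.3 CPM of Vegfa, and endothelial-like nuclei 4.87 to 13.4. In fibroblast-like nuclei it was higher by 0.79 (SE 0.26, edgeR adjusted p = 0.0171), a call lost without aged replicate 1 (0.54) and in nuclei with more than 2000 genes (0.27).

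The stretch before the first Vegfa start site is shown as the counterpart to the receptors, and the motif searched was ACGTG, the core bound by hypoxia-inducible factors, with no match in these 150 bases and hence no capitals.
Vegfa (chr17:46032378-46032527, minus strand): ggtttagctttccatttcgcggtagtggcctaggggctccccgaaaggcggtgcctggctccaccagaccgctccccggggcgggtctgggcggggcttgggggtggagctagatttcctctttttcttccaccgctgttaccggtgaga
The second of the 2 Vegfa start sites had ACGTG 211 bases before it. This core was present on either strand in 16.6% of the 32851 promoters of 250 bases. The missing match says only that these letters are not in the window.

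Angpt2 (chromosome 8, 18690263 to 18741562, minus strand) was concentrated in glia. It measured 254, 195 and 204 CPM in SGC-like nuclei (217 ± 32, SD, n = 3), above every library of every other class. The difference was 4.41 on the log2 scale (SE 0.19, edgeR adjusted p = 5.16e-19), and SGC-like nuclei held 69.4% to 87.7% of the Angpt2 UMIs of the 9 classes. Mural-like nuclei (97.9, 64.0 and 109), NMSC-like nuclei (119, 35.8 and 34.3) and MSC-like nuclei (47.7, 62.1 and 49.7) followed and overlapped. Angpt2 was higher in all 3 of these classes too, by 2.14 (SE 0.54, edgeR adjusted p = 0.00603) in mural-like, 1.93 (SE 0.31, 1.48e-05) in NMSC-like and 1.97 (SE 0.27, 3.61e-07) in MSC-like nuclei. Summed SGC markers were 1401, 1041 and 816 CPM in the mural-like nuclei, against 4342, 4589 and 4624 in SGC-like nuclei, and their part was not tested. Endothelial-like nuclei, where the Angpt2 receptor Tek was high, had at most 31.3 CPM of Angpt2 and no call.

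Angpt1 (chromosome 15, 42424723 to 42676977, minus strand) had another distribution and was high in mesenchymal classes. It measured 181, 256 and 381 CPM in mural-like nuclei, from 24, 16 and 7 UMIs, and 110, 142 and 197 in fibroblast-like nuclei, which overlapped. The difference was 3.11 (SE 0.46, edgeR adjusted p = 7.49e-06) in mural-like and 2.63 (SE 0.24, edgeR adjusted p = 1.09e-10) in fibroblast-like nuclei. Summed fibroblast markers were 3803, 2770 and 2176 CPM in the mural-like nuclei, and their part was not tested. SGC-like nuclei had 16.2, 64.2 and 60.8 CPM of Angpt1, and all fibroblast-like libraries lay above them. The SGC-like difference of 0.93 (SE 0.27, edgeR adjusted p = 0.00642) lost its call without aged replicate 1 (0.30) or aged replicate 2 (0.86). MSC-like and myeloid-like nuclei were at the bottom of the order with at most 7.56 CPM.

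Pdgfb (chromosome 15, 79995874 to 80014977, minus strand) was high in 2 classes. After the endothelial-like nuclei came the myeloid-like nuclei (61, 156 and 127), with 242, 123 and 188 CPM from 32, 78 and 102 UMIs. All 3 values lay below the endothelial-like and above the mural-like ones. The myeloid-like difference was 3.54 on the log2 scale (SE 0.30, edgeR adjusted p = 1.21e-11). For this ligand of Pdgfrb no mural-like library passed 48.0 CPM. The mural-like value of aged replicate 2 was 0, from 6 nuclei. It has the same ceiling as the 0 of Flt1 there, which reaches into the myeloid-like range.

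Pdgfa (chromosome 5, 138976014 to 138997370, minus strand) was spread over several classes. Mural-like nuclei measured 158, 256 and 54.4 CPM, from 21, 16 and 1 UMIs. Myeloid-like (30.2, 112 and 105), MSC-like (69.3, 85.9 and 77.8) and NMSC-like nuclei (31.0, 101 and 93.1) followed, and each class overlapped the next in order. It was higher than the mean of the other classes in all 4, by 1.94 (SE 0.40, edgeR adjusted p = 6.86e-04) in mural-like, 1.21 (SE 0.26, 2.94e-04) in myeloid-like, 1.01 (SE 0.22, 4.17e-04) in MSC-like and 0.88 (SE 0.26, 0.0128) in NMSC-like nuclei. Without aged replicate 1 the mural-like (1.83), myeloid-like (1.02) and NMSC-like calls (0.66) were lost, the last also without aged replicate 2 (0.78). SGC-like nuclei, high for Vegfa and Angpt2, were at the bottom for Pdgfa with 12.1, 12.0 and 8.01 CPM.

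The receptors for PDGF divided the mesenchymal nuclei. Pdgfra (chromosome 5, 75152292 to 75198215, plus strand) measured 135, 132 and 184 CPM in the fibroblast-like nuclei (887, 248 and 151), against at most 22.0 in any library of another class. The difference was 7.14 on the log2 scale (SE 0.30, edgeR adjusted p = 1.81e-17). NMSC-like nuclei were second with 11.3, 6.40 and 22.0, from 4, 5 and 9 UMIs, a difference of 3.08 (SE 0.79, edgeR adjusted p = 0.00506). Its call was lost without aged replicate 2 (2.51) and in nuclei with more than 2000 genes (1.38). Myeloid-like and lymphocyte-like nuclei had 0 Pdgfra UMIs in every library, which allows up to 22.7, 4.72 and 5.54 CPM in the former. Both classes enter the mean of log2 levels, so the sizes of 7.14 and 3.08 depend on how counts of 0 are treated.

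Pdgfrb (chromosome 18, 61045150 to 61085061, plus strand), the mural receptor, measured 1197, 785 and 1741 CPM in mural-like nuclei (1241 ± 480, SD, n = 3), from 53, 18 and 6 nuclei. No library of another class passed 158. The difference was 5.39 on the log2 scale (SE 0.25, edgeR adjusted p = 2.63e-17). MSC-like nuclei came second with 158, 120 and 129, above the fibroblast-like nuclei with 85.8, 86.2 and 102 in each library, and SGC-like nuclei with 103, 61.5 and 59.4 overlapped the latter. Pdgfrb was higher by 2.51 (SE 0.23, edgeR adjusted p = 1.16e-10) in MSC-like, 1.73 (SE 0.25, 1.22e-06) in fibroblast-like and 1.71 (SE 0.24, 4.23e-07) in SGC-like nuclei.

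Counted by class, 4 of the 10 genes were higher in SGC-like nuclei, where 24.7% of all genes tested were higher, 4 in fibroblast-like (22.8%), 4 in MSC-like (20.9%), 3 in NMSC-like (13.9%), 5 in mural-like (6.53%), 2 in myeloid-like (22.8%), 1 in neuron-like (38.5%) and 0 in lymphocyte-like nuclei (14.9%). Lower were 4 in SGC-like (13.4% of all genes), 4 in neuron-like (21.6%), 3 in fibroblast-like (10.5%), 3 in MSC-like (14.8%), 3 in myeloid-like (18.3%), 1 in NMSC-like (4.19%) and 0 in mural-like nuclei (5.11%, and 0 members at an unadjusted p under 0.05 or by DESeq2). The fifth mural gene was Flt1, higher by 1.65 (SE 0.52, edgeR adjusted p = 0.0327), from 12, 7 and 0 UMIs. Its call was lost without adult replicate 1 (1.89) or aged replicate 1 (1.40). Summed endothelial markers were 565, 512 and 435 CPM in mural-like nuclei, against 10451, 10811 and 11056 in endothelial-like nuclei. The part of these markers was not tested. In lymphocyte-like nuclei (84, 78 and 36) 10 of 10 genes were tested and 4 were lower (13.7% of all genes). At an unadjusted p under 0.05 and by DESeq2 the count of higher genes was 0 as well. The median log2 difference of the 10 genes was 0.50 in endothelial-like and 1.67 in mural-like nuclei, against -0.03 and -0.32 over all genes tested, and -0.72 in neuron-like nuclei against 0.19.

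A high CPM did not make a class the main holder of a gene's RNA, since the neuron-like nuclei were the most numerous class in each library and held the most UMIs. They held 80.1% to 87.2% of the Pdgfa UMIs of the 9 classes and 44.9% to 70.0% of the Pdgfrb UMIs. For Vegfa they held 44.8% to 77.2%, and SGC-like nuclei 18.3% to 51.6%. Endothelial-like nuclei, 42 to 105 per library, held 64.6% to 85.5% of the Flt1 UMIs of the 9 classes. For Kdr that share was 26.8% to 61.1%, with 22.1% to 38.3% in neuron-like nuclei. These shares leave out the UMIs in mixed, unnamed and other nuclei outside the 9 classes. Of 6282 Flt1 UMIs in all kept nuclei of the 3 libraries, the 9 classes held 3658 and endothelial-like nuclei 2855. Of 640 Kdr UMIs, the 9 classes held 377 and endothelial-like nuclei 177. Barcodes with 10 to 100 UMIs, which hold mostly free RNA, carried 18.8 to 28.1 CPM of Flt1 and 3.03 to 5.06 CPM of Kdr, and the neuron-like level of both genes (3.31 to 5.01 and 0.757 to 1.08) overlapped that of SGC-like nuclei (2.67 to 6.38 and 0.668 to 1.22). For Pdgfa the free RNA carried 52.4, 62.8 and 67.7 CPM, above the 41.2, 47.3 and 38.6 of neuron-like nuclei in each library. SGC-like nuclei had 8.01 to 12.1. Pdgfrb, at 32.9, 19.6 and 20.6 CPM in the free RNA, measured 24.7, 23.2 and 26.5 in neuron-like nuclei and at most 1.57 in myeloid-like nuclei. The part of free RNA in the neuron-like levels was not tested.

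**Figure D2:**
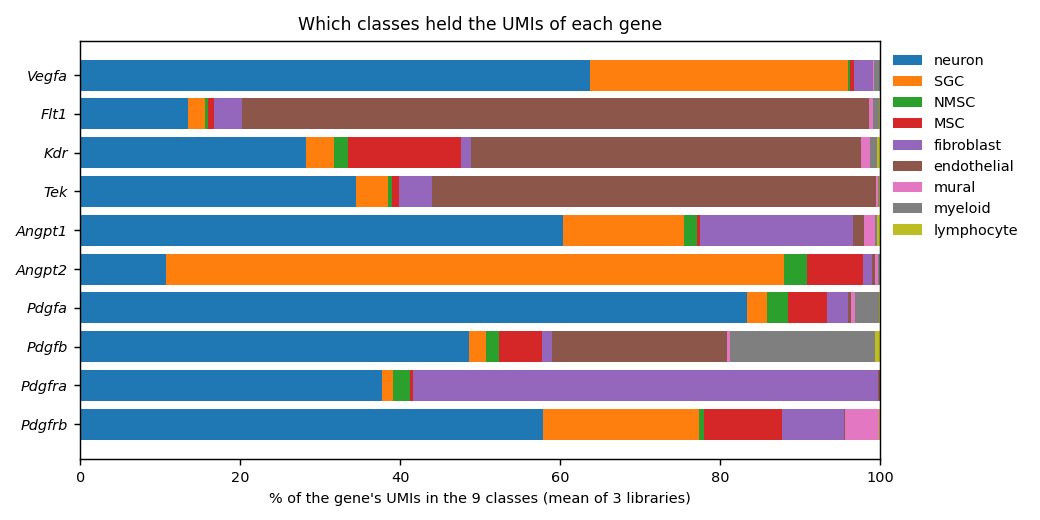
Share of the UMIs of each gene held by each class, in percent of the UMIs in the 9 classes and as the mean of 3 libraries. Neuron-like nuclei hold most Pdgfa UMIs, SGC-like nuclei most Angpt2 UMIs and endothelial-like nuclei most Flt1 UMIs.

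Neuron-like nuclei were split by markers into 6 groups of sensory neurons, and 9 of the 10 genes, all but Kdr, were tested between them. Pdgfrb was a gene of the Mrgprd group (478, 262 and 183 nuclei), the non-peptidergic nociceptors of skin. It measured 86.0, 76.9 and 81.0 CPM there, and no library of another group passed 33.8. The difference from the mean of the other groups was 3.51 on the log2 scale (SE 0.12, edgeR adjusted p = 8.81e-14). The Sst group, itch neurons, was second with 33.8, 17.1 and 16.6 (1.06, SE 0.18, edgeR adjusted p = 1.73e-04), and the 4 other groups lay between 2.42 and 10.9. The Mrgprd group thus had Pdgfrb at a level near that of the SGC-like and fibroblast-like nuclei. Tek was also higher in the Mrgprd group by 1.78 (SE 0.29, edgeR adjusted p = 5.93e-05), at 3.67, 4.67 and 8.48 CPM, against 0.484 to 1.55 in the Th group, with 4.23 to 5.74 in the free RNA.

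Pdgfra was higher in the Th group (422, 112 and 121 nuclei), low-threshold mechanoreceptors with C fibers, at 10.9, 16.5 and 13.1 CPM. No library of the other groups passed 10.2. The difference was 2.68 (SE 0.35, edgeR adjusted p = 5.29e-06), and with 7.54 to 14.4 CPM of Pdgfra in the free RNA the Sst group had 0.449 to 1.47.

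The ligands sorted by group as well. Vegfa measured 62.3, 84.6 and 90.8 CPM in the peptidergic group (513, 287 and 134 nuclei) and 61.3, 69.5 and 97.7 in the Trpm8 group of cold-sensing neurons (135, 57 and 31). All 6 of these values lay above those of the Mrgprd, Sst, Th and large fiber groups, which ran from 10.4 to 57.0. The differences were 1.19 (SE 0.14, edgeR adjusted p = 2.32e-06) and 1.15 (SE 0.16, edgeR adjusted p = 3.55e-05). Vegfa was lower in the Mrgprd group by 1.07 (SE 0.17) and in the Th group by 1.02 (SE 0.19) on the log2 scale, both called.

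Angpt1 was higher in the large fiber group of mechanoreceptors and proprioceptors (671, 462 and 171 nuclei), at 40.4, 27.9 and 44.6 CPM. The difference was 2.22 (SE 0.22, edgeR adjusted p = 1.03e-07), and the Trpm8 group overlapped it with 17.6, 27.1 and 36.2 (1.49, SE 0.31, edgeR adjusted p = 0.00139). The remaining 4 groups lay between 2.68 and 12.4, with 18.3 to 21.0 in the free RNA. Pdgfb was highest in the same large fiber group with 10.1, 12.0 and 9.07 CPM (2.59, SE 0.26, edgeR adjusted p = 1.23e-07), and was nearly missing from the Sst group, with 1 UMI over 3 libraries. The Mrgprd group had 0.566 to 0.695 CPM of Pdgfb, and the free RNA 9.17, 10.0 and 7.96. Pdgfa differed least, being higher by 0.47 (SE 0.11, edgeR adjusted p = 0.00243) in the peptidergic group at 61.4, 63.9 and 49.2, and lower by 0.42 (SE 0.11, edgeR adjusted p = 0.00634) in the Mrgprd group at 28.4 to 33.3.

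The count of genes higher among 9 tested was 5 in the large fiber group, where 26.3% of 15198 genes were higher, 3 in the peptidergic group (18.3%), 2 in the Mrgprd group (18.7%), 2 in the Th group (18.8%), 2 in the Trpm8 group (12%) and 1 in the Sst group (13.2%). Lower were 4 in the Sst group (10.4% of all genes), 3 in the Mrgprd group (18.8%), 3 in the Th group (17.8%), 1 in the large fiber group (22.7%), 1 in the peptidergic group (15.3%) and 0 in the Trpm8 group (8.34%, and 0 at an unadjusted p under 0.05 or by DESeq2). The large fiber calls of Angpt2 (0.86), Flt1 (0.77) and Vegfa (0.39) were lost without aged replicate 1 (0.45, 0.49 and 0.42). The Th call of Pdgfb (1.52, from 52, 6 and 12 UMIs) was lost without adult replicate 1 (0.91) and the peptidergic one (1.32) without aged replicate 2 (0.97).

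**Figure D3:**
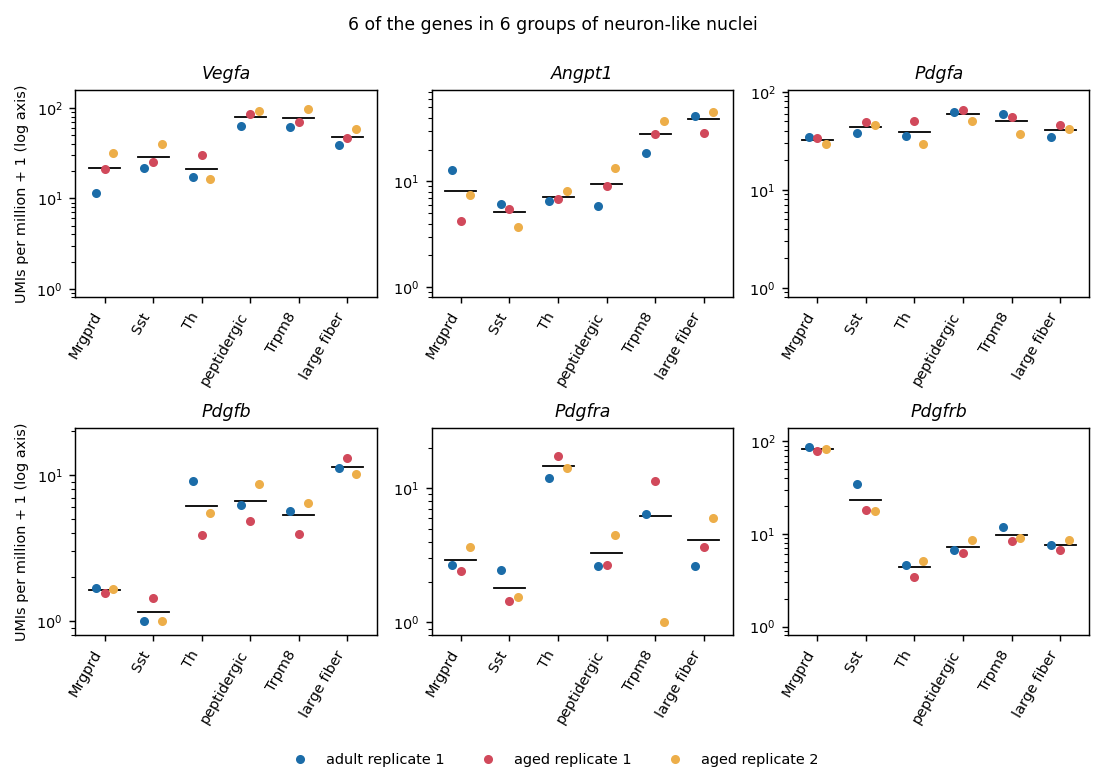
Level of the genes in 6 groups of neuron-like nuclei. Points are libraries (CPM, plus 1, log axis) and lines are the means of 3 libraries. Pdgfrb peaks in the Mrgprd group at 76.9 to 86.0 CPM, and Vegfa is highest in the peptidergic and Trpm8 groups.

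Fibroblast-like nuclei were split by markers into Scara5, Slc47a1 and Pax9 subsets. Pdgfra measured 503, 288 and 354 CPM in the Scara5 subset (153, 57 and 39 nuclei), and no library of the other subsets passed 121. The difference was 2.30 on the log2 scale (SE 0.24, edgeR adjusted p = 1.60e-06). Scara5 marks fibroblasts of loose connective tissue, whereas Slc47a1 is a gene of barrier fibroblasts and Pax9 marks another set. Pdgfra was lower in the Slc47a1 subset (55.5, 83.8 and 121) by 1.13 (SE 0.28), a call lost without adult replicate 1 (-0.45), and in the Pax9 subset (104, 59.2 and 56.9) by 1.17 (SE 0.28), a call lost without aged replicate 1 (-1.10) or aged replicate 2 (-0.96).

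Angpt1 ran the other way. It measured 151, 245 and 327 CPM in the Slc47a1 subset (333, 66 and 52 nuclei), 77.3, 101 and 73.9 in the Pax9 subset and 32.3, 42.4 and 88.6 in the Scara5 subset. Every Slc47a1 value lay above every value of the other 2 subsets, with a difference of 1.74 (SE 0.21, edgeR adjusted p = 6.85e-06), and the Scara5 subset was lower by 1.47 (SE 0.27, edgeR adjusted p = 5.86e-04). Pdgfrb did not divide the subsets in this way, at 156, 72.1 and 138 in the Scara5 subset against 65.6 to 98.7 in both others. Flt1 was higher in the Scara5 subset by 1.94 (SE 0.52, edgeR adjusted p = 0.0111), from 22, 4 and 14 UMIs, and the call was lost without aged replicate 1 (1.84) or aged replicate 2 (1.59). The Pax9 subset had less Vegfa by 1.24 (SE 0.35, edgeR adjusted p = 0.0186), a call lost without any 1 of the 3 libraries (-1.43 to -1.07). Of 6 genes tested, 2 were higher in the Scara5 subset (10.8% of 7481 genes), 1 in the Slc47a1 subset (10.1%) and 0 in the Pax9 subset (8.26%), the last also at an unadjusted p under 0.05 and by DESeq2. Lower were 2 in the Pax9 subset (6.95%), 1 in the Scara5 subset (8.41%) and 1 in the Slc47a1 subset (10.7%).

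**Figure D4:**
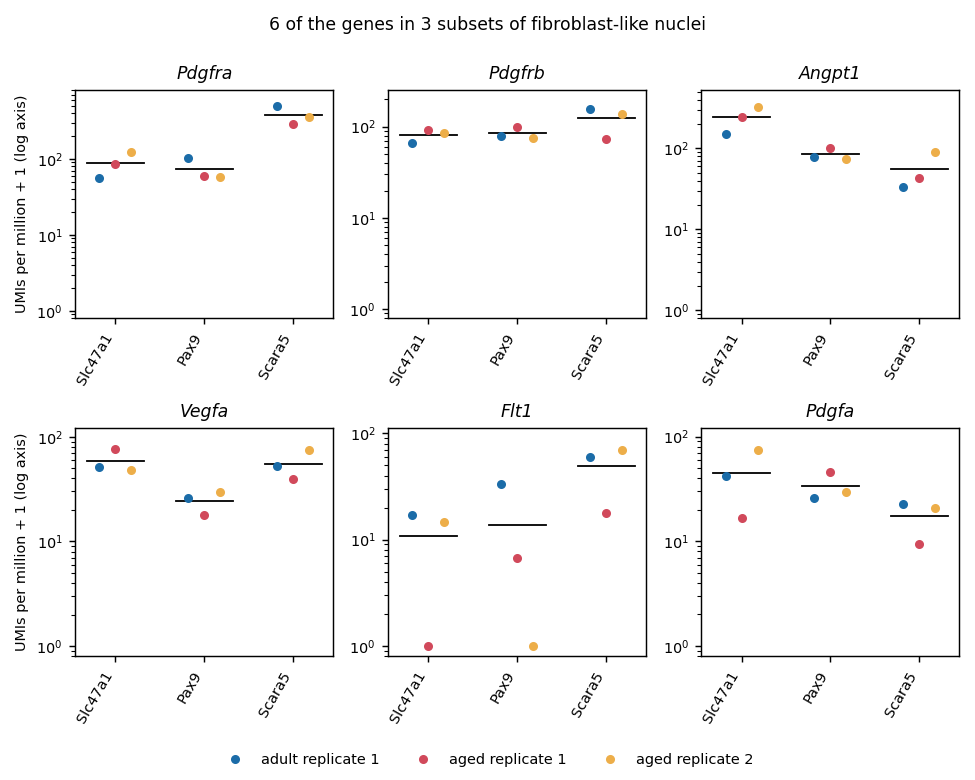
Level of the genes in 3 marker-defined subsets of fibroblast-like nuclei. Points are libraries (CPM, plus 1, log axis) and lines are means of 3 libraries. Pdgfra is highest in the Scara5 subset and Angpt1 in the Slc47a1 subset.

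The aged and adult libraries were compared in 7 classes, and the clearest difference was Angpt1 in SGC-like nuclei. It measured 16.2 CPM in the adult library (160 UMIs) against 64.2 and 60.8 in the aged libraries (188 and 91 UMIs). The aged level was higher by 1.84 on the log2 scale (SE 0.24, edgeR adjusted p = 3.06e-11) and stayed at 1.82 and 1.86 without aged replicate 1 and 2. Pdgfrb in the same nuclei moved the opposite way, from 103 to 61.5 and 59.4 CPM, lower by 0.88 (SE 0.19, edgeR adjusted p = 2.36e-04). In the free RNA Pdgfrb was also higher in the adult library, at 32.9 against 19.6 and 20.6 CPM, as it was in all kept nuclei. The part of these library-wide levels was not tested. In the other classes tested, the Pdgfrb difference ran from -1.84 (NMSC-like) to 0.06 (fibroblast-like), none called. Angpt2 and Vegfa, the ligands of that class, had differences of -0.46 (SE 0.16, edgeR adjusted p = 0.0517) and -0.20 (SE 0.17, edgeR adjusted p = 0.52), neither called, nor were Flt1 (-0.57), Pdgfa (-0.32) and Pdgfb (1.10). In SGC-like nuclei 2 of 7 genes tested were called, against 10.3% of all genes in either direction. The adult SGC-like nuclei were shallower (median 3168 UMIs against 7118 and 7487), made up 25.7% of nuclei against 7.41% and 7.51%, and had 9.08% of their UMIs in the nuclear RNA Malat1 against 2.51% and 2.65%. With every nucleus thinned to 1000 UMIs the Angpt1 difference was 1.10 and not called (edgeR adjusted p = 0.364), and in nuclei with more than 2000 genes it was 1.79 (edgeR adjusted p = 0.325), a setting in which edgeR called 0 of all 13808 genes tested in this class, with 1993 at an unadjusted p under 0.05. The Pdgfrb difference was called after thinning (-1.25) and not in nuclei with more than 2000 genes (-0.87) or by DESeq2 (-0.87). Summed markers of every other class but the fibroblast-like one were also higher in the adult SGC-like nuclei. Those of MSC-like nuclei were 704 against 559 and 523 CPM, and of NMSC-like nuclei 17685 against 13579 and 14054. Mural markers were 43.4 against 34.1 and 31.4, neuron markers 1974 against 1727 and 1070 and endothelial markers 74.2 against 51.9 and 38.1. Summed fibroblast markers were 287 against 322 and 279. The part of depth, makeup, these markers and RNA quality in these results was not tested.

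Among the Schwann-like classes, Pdgfb in MSC-like nuclei had 1 UMI in the adult library (428 nuclei), against 44 and 22 in the aged libraries (385 and 128 nuclei). Its level was 0.866 CPM against 27.6 and 36.4, and the aged to adult ratio was 34.7 with a 95% counting interval of 6.01 to 1389. The fit gave 4.88 on the log2 scale (SE 0.77, edgeR adjusted p = 3.61e-04). The UMIs lay in 21 of the aged replicate 1 nuclei and 13 of the aged replicate 2 nuclei. After thinning the gene could not be tested in this class. Summed MSC markers were 52370 CPM in the adult library against 19574 and 17323, and Malat1 took 7.27% against 2.36% and 2.35%. Summed neuron markers were 2209 against 1302 and 939, and summed SGC markers 1104 against 1682 and 1628. Their part in the result was not tested. In MSC-like nuclei 1 of 7 genes was called (9.05% of all genes), and the others ran from -1.68 (Flt1) to 0.39 (Vegfa).

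NMSC-like nuclei (137, 193 and 94) had less Angpt2 and more Pdgfa in the aged libraries. Angpt2 measured 119 against 35.8 and 34.3 CPM, lower by 1.83 (SE 0.38, edgeR adjusted p = 9.37e-05). In the free RNA Angpt2 was 26.3 against 12.1 and 11.8 CPM, and in all kept nuclei 45.9 against 23.9 and 18.8. The part of these library-wide levels was not tested. Pdgfa measured 31.0 against 101 and 93.1, higher by 1.56 (SE 0.46, edgeR adjusted p = 0.0128). These were 2 of 5 genes tested, against 8.41% of all genes. After thinning to 1000 UMIs neither was called (-1.70 and 1.01), but this fit called only 2 of 4410 genes, and under a stricter gate Pdgfa was not called (1.25). Angpt2 is also the gene by which the neighbouring SGC-like class stood out, and the border of both classes is soft, and the part of SGCs in the adult NMSC-like nuclei was not tested. Summed fibroblast markers moved the same way as Pdgfa in these nuclei, 1290 in the adult library against 2250 and 2219 CPM. So did summed myeloid markers, 76.2 against 174 and 152. Those of the remaining classes, NMSC apart, were higher in the adult library. Summed neuron markers (3214 against 1869 and 1533 CPM) and Malat1 (6.27% against 2.01% and 1.98%) were higher in the adult library, and the part of these values was not tested. Vegfa (-1.999, SE 1.05), Pdgfrb (-1.84) and Angpt1 (0.34) were not called.

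Myeloid-like nuclei had 30.2 CPM of Pdgfa in the adult library (4 UMIs) against 112 and 105 (71 and 57 UMIs), higher by 1.84 (SE 0.60, edgeR adjusted p = 0.0261), 1 of 4 genes tested against 10.5% of all genes. Pdgfb (-0.64), Vegfa (1.21) and Flt1 (-0.996) were not called. DESeq2 (1.84), the stricter gate (1.70) and thinning (1.25) each ended the call. Malat1 (3.42% against 1.47% and 1.41%), summed neuron markers (2048 against 928 and 694 CPM), summed lymphocyte markers (476 against 112 and 95.9) and summed myeloid markers (4919 against 2797 and 2528) were all higher in the adult myeloid-like nuclei, and their part was not tested. In fibroblast-like nuclei Flt1 was lower by 1.33 (SE 0.36, edgeR adjusted p = 0.00370), 1 of 8 genes against 10.8%. The aged libraries differed there, at 6.63 and 27.0 CPM against 37.7 in the adult library, and the difference was -0.54 without aged replicate 1 and -2.55 without aged replicate 2. The stricter gate ended the call (-0.58), after thinning the gene could not be tested, and DESeq2 gave no adjusted p. The other 7 genes ran from -1.52 (Tek) to 0.56 (Angpt1), none called. In the fibroblast-like nuclei summed NMSC markers were 1311 CPM in the adult library against 2688 and 2753, summed neuron markers 1778 against 1019 and 719, and Malat1 5.09% against 2.26% and 2.12%. Summed endothelial markers were 329 against 462 and 463, the opposite direction to Flt1. The part of these values was not tested.

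Of 159 differences of the 10 genes in age difference between 2 classes, 10 passed an interaction test, against 2% over all genes and pairs of classes. Endothelial-like nuclei gave no age call among 5 genes tested, with 3.29% of all genes called, and 0 of the 5 had an unadjusted p under 0.05 or a call by DESeq2. Tek was nearest, at 420 against 623 and 592 CPM, a difference of 0.48 (SE 0.25, edgeR adjusted p = 0.407). Angpt1 differed by 1.09 (SE 0.92, from 5 adult and 29 aged UMIs), Flt1 by -0.25 (SE 0.17), Kdr by 0.23 (SE 0.34) and Pdgfb by -0.06 (SE 0.28), none called. In neuron-like nuclei 0 of 10 genes were called by edgeR or DESeq2, with 7.26% of all genes called and 1 gene (Angpt2) at an unadjusted p under 0.05, and differences ran from -0.77 (Angpt2) to 0.37 (Vegfa). No age fit was made for mural-like nuclei, with 18 and 6 nuclei in the aged libraries, or for lymphocyte-like nuclei.

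**Figure D5:**
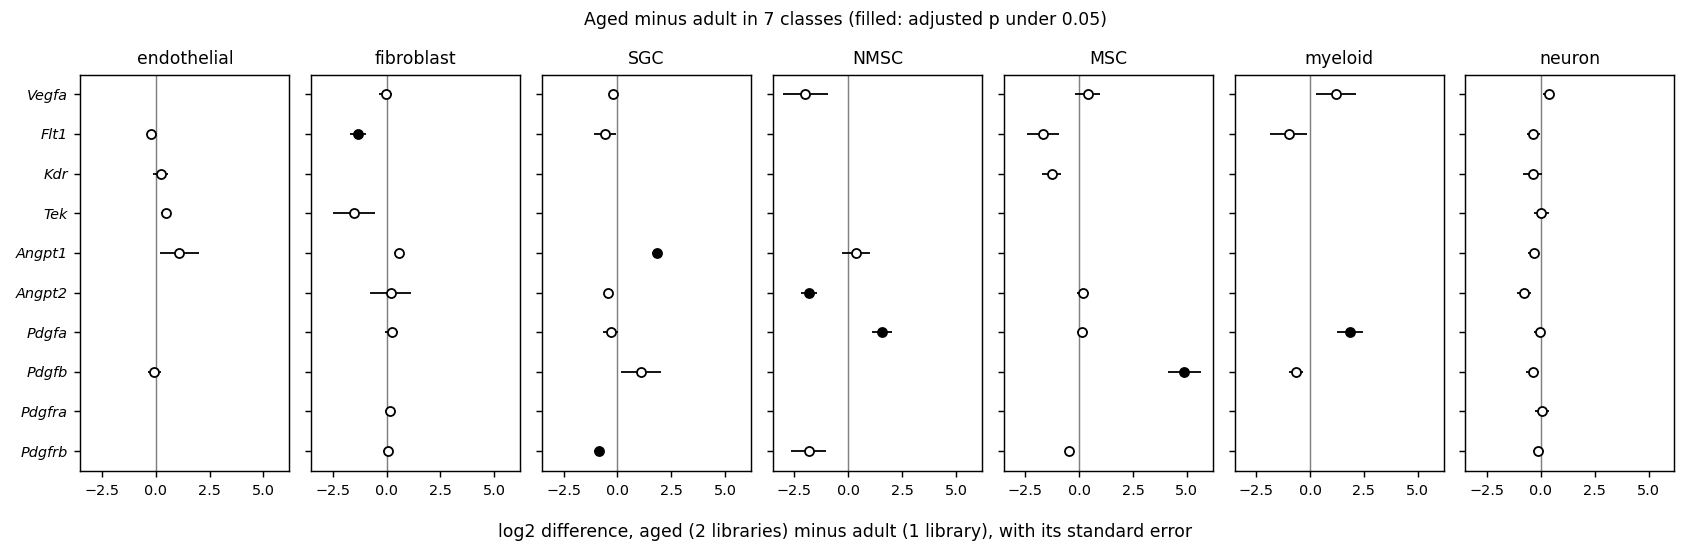
Aged (2 libraries) minus adult (1 library) difference of each tested gene in 7 classes, on the log2 scale with its standard error, filled where the edgeR adjusted p was under 0.05. The 7 filled points are Angpt1 and Pdgfrb in SGC-like, Angpt2 and Pdgfa in NMSC-like, Pdgfb in MSC-like, Pdgfa in myeloid-like and Flt1 in fibroblast-like nuclei.

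Of 45 other genes of these pathways, 41 were tested between classes. Endothelial-like nuclei had 22 higher and 1 lower, where 14.1% of all genes were higher and 8.01% lower, with a median of 0.91 against -0.03 over all genes. They included 5 of 7 VEGF family genes, 3 of 3 tested of the angiopoietin and Tie family, 5 of 7 tested vessel genes, and 3 of 9 genes of oxygen sensing. The 4 with the largest difference were Nos3 (7.67), the endothelial nitric oxide synthase, Notch4 (7.47), the Notch ligand Dll4 (7.36) and Tie1 (7.05), the orphan partner of Tek. The oxygen-sensing factor Epas1 rose with them (3.77, SE 0.23, edgeR adjusted p = 7.15e-15), and Pik3r1 was lower by 1.17.

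SGC-like nuclei had 14 of the 41 pathway genes higher and 5 lower (all genes 24.7% and 13.4%), with a median of 0.17 against 0.07 over all genes. Hey2, a Notch target, was higher by 5.80 and Notch1 itself by 3.01, while Hif3a, an oxygen-sensing factor, was higher by 5.43 and Pgf, a second ligand of Flt1, by 4.79. Pgf thus stood beside Vegfa and Angpt2 as a ligand of endothelial receptors in this class. Fibroblast-like nuclei had 14 higher and 7 lower (all genes 22.8% and 10.5%), led by Pgf (4.37), Pdgfd (3.56), a ligand of Pdgfrb, and Pdgfrl (3.52). Mural-like nuclei had 6 higher and 1 lower (all genes 6.53% and 5.11%), with Hif3a (3.63), Pdgfrl (3.21), Pdgfd (2.86) and the VEGF co-receptor Nrp1 (2.38). The Hif3a difference (SE 1.17, edgeR adjusted p = 0.0419) rests on 17.9 ± 18.9 CPM (SD, n = 3). Means of Hif3a were higher in SGC-like (62.2) and NMSC-like nuclei (36.4). Pdgfd had its highest mean in endothelial-like nuclei (773 ± 172 CPM, SD, n = 3), against 242 in fibroblast-like and 159 in mural-like nuclei. Myeloid-like nuclei had 6 higher and 9 lower (all genes 22.8% and 18.3%), led by Pdgfc (3.18), a ligand of Pdgfra, and Nrp1 (2.58).

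The other classes had fewer or mixed calls. MSC-like nuclei had 4 higher and 13 lower (all genes 20.9% and 14.8%), with the adaptor Gab1 (1.68) and the lymphatic ligand Vegfc (1.59) higher. Its receptor Flt4 was called lower in these nuclei with 0 UMIs in every library, which allows up to 2.60, 1.88 and 4.97 CPM, and no fold is given. NMSC-like nuclei had 9 higher and 7 lower (all genes 13.9% and 4.19%), neuron-like nuclei 10 and 12 (38.5% and 21.6%), and lymphocyte-like nuclei 3 and 11 (14.9% and 13.7%). Between aged and adult libraries, 2 of 31 pathway genes were higher in endothelial-like nuclei (1.19% of all genes), Pdgfc (2.22, SE 0.42, edgeR adjusted p = 2.21e-05) and Epas1 (0.80, SE 0.23, edgeR adjusted p = 0.0246). In the endothelial-like nuclei Malat1 took 4.95% in the adult library against 1.94% and 1.81%, summed neuron markers were 2867 against 1498 and 1009 CPM and summed SGC markers 402 against 714 and 535, and SGC-like nuclei themselves had a mean of 108 CPM of Pdgfc and 294 of Epas1. The part of these values was not tested. Myeloid-like nuclei had 5 of 25 higher and 1 lower (all genes 5.45% and 5.07%), the largest rise being Epas1 (3.69, SE 0.87). Epas1 measured 70.1 ± 60.1 CPM (SD, n = 3) there, and the adult class held only 61 nuclei and 132334 UMIs. MSC-like nuclei had 2 of 28 higher (3.29% of all genes), Vegfc (1.98) among them, and SGC-like nuclei 2 of 35 higher and Pgf lower by 0.90 (all genes 3.92% and 6.35%). Fibroblast-like nuclei had 3 of 33 higher (Nrp2, Pdgfd and Nrp1, against 4.62% of all genes), NMSC-like nuclei 2 higher and 3 lower of 27 (3.85% and 4.55%), and neuron-like nuclei 1 lower of 43 (Notch1, against 5.91%).

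The genes most like each of the 10 were taken by Pearson r of log2(CPM + 1) over 27 sums, 9 classes in 3 libraries that share depth and free RNA, among 19893 genes that were neither markers nor pathway genes. Flt1 was most like Slco1a4 (0.91), a transporter of brain and nerve endothelium, Zfp366 (0.91) and the ETS factor Erg (0.90), and Tek like Slco1a4 (0.92), Gm609 (0.91) and Mmrn2 (0.91). Kdr was most like Cyp4b1 (0.82), Edn1 (0.82), the precursor of endothelin 1, and Degs2 (0.80). Pdgfb was most like Cd93 (0.87), Elk3 (0.81) and Lmo2 (0.81), genes known from both endothelium and blood cells.

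Among the others, Angpt2 was most like Dmd (0.86), the dystrophin gene, Ppp2r3a (0.86) and Olfml2a (0.85), and Angpt1 like Pear1 (0.91), Igfbp4 (0.83) and Klf12 (0.82). Pdgfra was most like Foxd2 (0.92), E330011O21Rik (0.91) and Slc6a12 (0.88), and Pdgfrb like Vstm4 (0.85), 4921504A21Rik (0.85) and Smarcd3 (0.84). Vegfa reached 0.80 with Hsdl2, 0.77 with Adcy2 and 0.77 with Nr6a1, and Pdgfa only 0.72 with Lgals1, 0.71 with Pigu and 0.66 with Irs2, the lowest values of the 10.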

How the data were processed

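Nuclei of L3 to L5 DRG were isolated by the authors and prepared with a particle-templated 3′ kit. The deposited matrices hold UMI counts for every barcode, unnormalized and made by the authors with Pipseeker against mm10 per the labels; the annotation is not given in the sources used here. Because the ends of transcripts are counted, levels were compared within a gene and not between genes, and overlapping genes cannot be told apart where strand is not stated. The 10 genes, the pathway lists and the markers were chosen with earlier results of these data known.

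Barcodes with more than 1000 genes were kept (19259 nuclei of 7425421 barcodes, 69045987 to 167664164 UMIs per library). Each nucleus was scored against 9 marker lists and the free RNA (barcodes with 10 to 100 UMIs), each marker capped at 3 UMIs, and took the class that led by a margin of 3. Gate settings were chosen after a comparison with an unsupervised clustering. Even mixtures of 2 classes were left out, which is how doublets were treated, as were unnamed nuclei and cycling or erythroid nuclei.

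UMIs were summed per library and class and tested with edgeR 4.0.16 in R 4.3.3 (TMM, filterByExpr, quasi-likelihood test). Each class was tested against the mean of the log2 levels of the others, with library as a block. Aged was tested against adult within a class with 1 residual degree of freedom, where the lone adult library is assumed to vary like the aged ones. Adjusted p-values are Benjamini-Hochberg over all genes tested, with a threshold of 0.05. Classes entered the class fits with 3 or more nuclei in each library, and age was tested in 7 classes, each with 20 or more nuclei in each library (lymphocyte-like nuclei were not among them). SE is the log2 difference divided by the square root of F. The script was tested on simulated data. Alternatives were DESeq2 1.42.0, its size factors, no filter on low counts, more than 2000 genes per nucleus, a margin of 6, classes of 20 or more nuclei, thinning to 1000 UMIs and leaving out a library. Ranges for a count of 0 use 3 counts, and intervals are exact, at 95%, and cover counting error only.

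The 10 genes are given in the class and age comparisons singly or by their range, and in part only for the neuron groups and fibroblast subsets. Of 45 listed pathway genes, up to 4 per direction with the largest called difference are named, and 3 like genes per gene. Epas1 and Pdgfd in endothelial-like nuclei were named after their values were seen.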

Additional observations from a re-analysis of the deposited data

Results flagged for a closer look

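Of 159 differences between classes in the aged minus adult value, over 21 pairs of classes, 10 passed an interaction test, where 5056 of 253367 differences over all genes (2%) did (edgeR adjusted p under the threshold, with 1 adult library). They are given as values.

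Pdgfb was the ligand of 3 of them, all through MSC-like nuclei. Its age difference in MSC-like nuclei exceeded that in endothelial-like nuclei by 4.77 on the log2 scale (SE 0.89, edgeR adjusted p = 5.02e-05). The neuron-like minus MSC-like value was -5.47 (SE 1.05, edgeR adjusted p = 4.70e-05) and the myeloid-like minus MSC-like value -5.43 (SE 0.90, edgeR adjusted p = 4.42e-07). The 3 rest on 1 adult UMI in MSC-like nuclei.

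Angpt1 differed through SGC-like nuclei. The SGC-like minus fibroblast-like value was 1.27 (SE 0.28, edgeR adjusted p = 0.00742), the MSC-like minus SGC-like value -2.87 (SE 0.87, edgeR adjusted p = 0.0428) and the neuron-like minus SGC-like value -2.24 (SE 0.28, edgeR adjusted p = 5.22e-13). In neuron-like nuclei Angpt1 itself had an age difference of -0.34 with no call.

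Pdgfrb gave -0.97 for SGC-like minus fibroblast-like nuclei (SE 0.27, edgeR adjusted p = 0.0398). Between both glial classes with a soft border, the NMSC-like minus SGC-like value was 1.93 for Pdgfa (SE 0.59, edgeR adjusted p = 0.0399) and -1.33 for Angpt2 (SE 0.37, edgeR adjusted p = 0.0165), and Angpt2 gave 1.99 for MSC-like minus NMSC-like nuclei (SE 0.48, edgeR adjusted p = 0.00303).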

How the results depend on the processing

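The 93 called differences of the 10 genes gave 721 values under the alternatives, of which 630 kept direction and call, 88 kept direction and lost the call, 2 moved and 1 reversed. The reversal was Flt1 in NMSC-like nuclei, -1.74 and 0.22 in nuclei with more than 2000 genes, and the cause was not tested. Over 18 comparisons, 110 of 126 counts of called genes stayed within 1.5 times. Leaving out 1 library gave 1 to 3 genes in NMSC-like nuclei (3 with all libraries, 1 without aged replicate 2), 3 to 5 in mural-like nuclei (5, and 3 without aged replicate 1) and 1 to 2 in myeloid-like nuclei (2, and 1 without aged replicate 1). The age counts depended most on the setting. In nuclei with more than 2000 genes they were 2 in fibroblast-like (1 otherwise), 0 in SGC-like (2, with 0 of all 13808 genes called) and 2 in MSC-like nuclei (1). Under the stricter gate they were 0 (fibroblast-like), 1 (NMSC-like), 2 (MSC-like) and 0 (myeloid-like). Thinning gave 0 in the same 4 classes, and in NMSC-like nuclei it left 2 of 4410 genes called. DESeq2 gave 1 in SGC-like and 0 in myeloid-like nuclei, and no adjusted p for Flt1 (fibroblast-like), Angpt2 (NMSC-like) and Pdgfb (MSC-like nuclei). Without an aged library, Flt1 in fibroblast-like nuclei moved to -0.54 and -2.55. The cause was not tested in any of these.

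No paired analysis was possible because the labels give no pairing between the adult and aged libraries. Nuclei with more than 2000 genes were too few for class fits of the vessel and immune classes and for some age fits, which were not run. Age differences without adult replicate 1 have no value, and those without an aged library are values with no test. Depth limits the mural-like class most, with 6 nuclei in aged replicate 2.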
